A study of Mus musculus with 35 samples.

Results

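Monomethylation of histone H3 at lysine 4 (H3K4me1) was called at 5428 distal sites in WT, Npm1c and Flt3-ITD mouse bone marrow progenitors and had no called peak in either DM library. These sites are the subject of the account. They were found by merging the H3K4me1 peaks of 10 libraries into 199891 regions, dropping those that touched an H3K4me3 peak of any library, which left 138234 distal regions, and keeping those with a peak in all 6 WT, Npm1c and Flt3-ITD libraries and in 0 of 2 DM libraries. Of 26312 distal regions with a peak in all 6 libraries, 5428 (20.6%) met the rule, 17962 had a peak in both DM libraries and 2922 in 1 of them. The 17962 are called kept sites below. Presence of H3K4me1 in progenitors and absence of H3K4me3 chose the sites, so both are given as description, without a test: the sites were chosen by the presence of H3K4me1 and H3K4me3 peaks in these same libraries.

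The cells were lineage-negative hematopoietic stem and progenitor cells (HSPC) of C57BL/6 mice of 4 genotypes (DM, Npm1c, Flt3-ITD and WT) and WT neutrophils, both isolated from bone marrow with depletion or isolation kits. DM is read here as carrying both the Npm1c and the Flt3-ITD allele, which the labels do not spell out. The labels give no age, promoter or Cre driver. For every mark there were 2 libraries a group, described as biological replicates in the series design, and values below are given for replicate 1 and replicate 2 in that order. The deposited lists hold peak coordinates without a read count, so sequencing depth is unknown. A list that lacks a peak shows that none was called at that library's depth, not that the mark was absent. H3K4me1 lists had 104761 and 109371 peaks in DM and from 102927 to 131205 over all 10 libraries, and the shortest was that of Npm1c replicate 1. Neutrophil markers checked the labels: H3K27ac peaks over S100a8, S100a9, Ltf, Camp, Ngp and Cxcr2 summed to 24.7 and 26.3 kb in neutrophils and to at most 1.59 kb in any HSPC library.

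H3K4me1 marks enhancers, which are distal control elements, and is laid down before or together with their activation. Acetylation of histone H3 at lysine 27 (H3K27ac) marks enhancers that are in use, so a site with H3K4me1 alone is often called primed or poised. Npm1c is a mislocalised nucleophosmin and Flt3-ITD a constitutively active receptor tyrosine kinase, and the pair is frequent in acute myeloid leukaemia. Progenitors carry primed enhancers of several blood lineages, and neutrophils keep those of the myeloid line.

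No genome sequence was used, so sequence is shown for the start-site windows that lay inside a lost site. RefSeq (GRCm38.p6, the assembly of mm10) places 81 annotated gene starts, 36 of them protein-coding, in 77 of the 5428 sites, although none of these sites touched an H3K4me3 peak. The letters AGATAA, the core bound by GATA factors, stood on either strand in 19 of the 81 windows of 300 bases (23.5%), in 56 of 531 windows with a start in a kept site (10.5%) and in 11.2% of 32851 windows of all genes. The other 6 motifs searched on both strands were the RUNX letters TGTGGT in 28.4% of the windows in lost sites against 22.8% in kept sites, C/EBP TTGCNNAA in 14.8% against 9.04%, ETS AGGAAG in 38.3% against 41.1%, AP-1 TGANTCA in 7.41% against 12.1%, KLF CACCC in 58.0% against 59.7% and the E-box CAGCTG in 19.8% against 20.7%. Over all 32851 windows these 6 shares were 16.8%, 10.8%, 35.4%, 7.81%, 57.5% and 16.3%, in the same order. Matches of different strings may share bases. A match is a string of letters and not a shown binding site, and windows of neighbouring starts can overlap. Of the 19 windows with AGATAA or its complement TTATCT (in capitals), 5 are printed 5′ to 3′ on the gene's strand, with that of Hbb-y, which has neither, chosen after their values were seen to show the letters and the kinds of genes involved.
Sppl2b, an intramembrane protease gene whose start lies in 1 lost site while another lost site of the gene is acetylated in WT, chr10:80862705-80863004, plus strand:
Sppl2b: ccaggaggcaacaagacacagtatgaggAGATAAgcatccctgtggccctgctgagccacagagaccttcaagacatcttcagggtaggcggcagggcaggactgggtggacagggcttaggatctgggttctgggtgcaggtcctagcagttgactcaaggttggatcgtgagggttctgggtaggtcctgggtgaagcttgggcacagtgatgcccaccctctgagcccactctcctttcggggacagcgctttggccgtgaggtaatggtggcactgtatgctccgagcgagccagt
Cldn10, a tight-junction claudin gene, chr14:118787621-118787920, plus strand:
Cldn10: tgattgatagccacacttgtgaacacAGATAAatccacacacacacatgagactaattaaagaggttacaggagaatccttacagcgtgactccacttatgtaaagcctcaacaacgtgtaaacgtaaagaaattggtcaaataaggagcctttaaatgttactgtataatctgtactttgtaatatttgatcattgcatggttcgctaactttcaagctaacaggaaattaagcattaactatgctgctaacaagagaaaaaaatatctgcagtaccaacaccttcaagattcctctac
Pde2a, a cyclic nucleotide phosphodiesterase gene, chr7:101421441-101421740, plus strand:
Pde2a: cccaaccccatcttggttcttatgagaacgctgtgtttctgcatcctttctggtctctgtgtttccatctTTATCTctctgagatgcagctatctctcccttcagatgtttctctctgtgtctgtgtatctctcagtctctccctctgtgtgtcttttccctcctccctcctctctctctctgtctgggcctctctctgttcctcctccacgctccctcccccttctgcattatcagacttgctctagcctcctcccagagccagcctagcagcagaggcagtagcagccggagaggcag
Gsta3, a glutathione transferase gene in a site that neutrophils also mark, chr1:21240335-21240634, plus strand:
Gsta3: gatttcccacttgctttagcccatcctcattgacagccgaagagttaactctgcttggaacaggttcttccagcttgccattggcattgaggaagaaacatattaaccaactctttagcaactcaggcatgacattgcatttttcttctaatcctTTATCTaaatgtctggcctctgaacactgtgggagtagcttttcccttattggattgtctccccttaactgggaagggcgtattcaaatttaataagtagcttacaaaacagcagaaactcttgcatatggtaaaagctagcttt
Ccr3, the eotaxin receptor of eosinophils, in a site that neutrophils also mark, chr9:124021721-124022020, plus strand:
Ccr3: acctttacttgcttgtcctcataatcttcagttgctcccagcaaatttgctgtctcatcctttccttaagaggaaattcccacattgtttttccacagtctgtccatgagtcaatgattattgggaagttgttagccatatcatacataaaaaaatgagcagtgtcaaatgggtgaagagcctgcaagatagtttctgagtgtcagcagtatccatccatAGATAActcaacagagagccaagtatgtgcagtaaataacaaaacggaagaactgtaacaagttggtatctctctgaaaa
Hbb-y, an embryonic beta-like globin gene, chr7:103853158-103853457, minus strand:
Hbb-y: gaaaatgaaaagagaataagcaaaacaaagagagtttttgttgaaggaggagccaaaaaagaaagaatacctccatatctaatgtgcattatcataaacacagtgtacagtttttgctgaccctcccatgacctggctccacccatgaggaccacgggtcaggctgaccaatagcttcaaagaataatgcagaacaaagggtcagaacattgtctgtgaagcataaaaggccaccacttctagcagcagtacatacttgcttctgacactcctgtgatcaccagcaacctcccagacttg

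The same rule with another genotype in the place of DM gave far fewer sites. It left 695 of 25170 sites lost only in Npm1c (2.76%), 112 of 18835 lost only in Flt3-ITD (0.595%) and 140 of 18759 lost only in WT (0.746%). These counts share libraries and are read side by side. Leaving out Npm1c replicate 1, the library with the fewest peaks, gave 6521 sites for DM, 938 for Npm1c with its 1 remaining library, 229 for Flt3-ITD and 767 for WT. The order DM, Npm1c, WT, Flt3-ITD was the same in both counts. A peak in 1 of the 2 libraries stood at 6513 of the 25170 sites for Npm1c and at 2922 of 26312 for DM. For Flt3-ITD it was 761 of 18835 and for WT 657 of 18759. The rule needs both lists of a genotype to lack a peak. The DM lists had 104761 and 109371 peaks and those of Npm1c 102927 and 125709. The part of list length in these counts was not tested. In the opposite direction, a peak in both libraries of 1 genotype and in none of the other 6, DM had 3823 distal sites against 741 in Npm1c, 816 in Flt3-ITD and 1491 in WT.

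**Figure D1:**
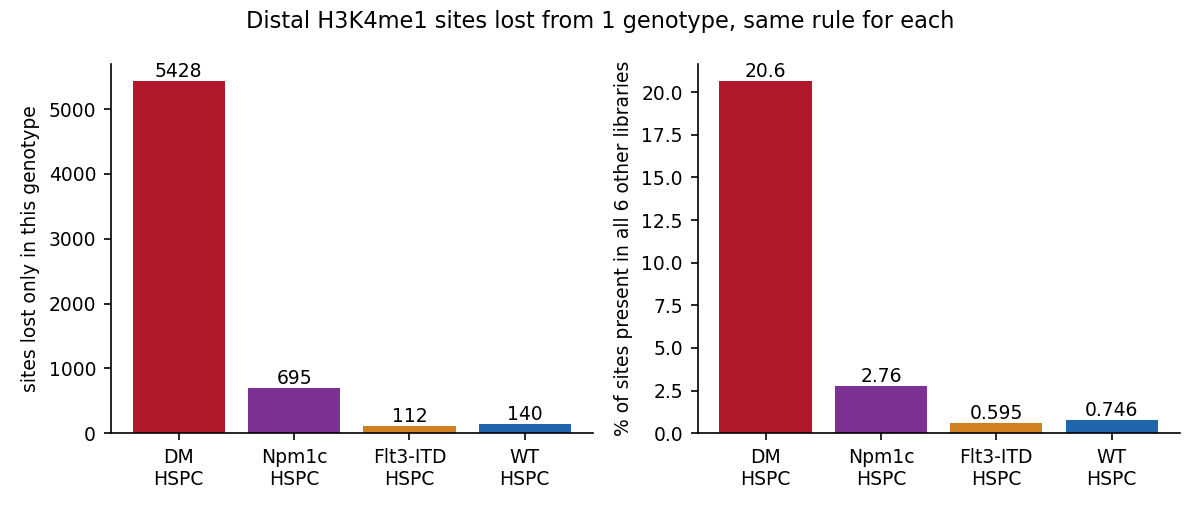
Distal H3K4me1 sites lost from 1 genotype only, with the rule applied to DM, Npm1c, Flt3-ITD and WT HSPC; bars give the number of sites (left) and the percentage of the sites that had a peak in all 6 libraries of the other genotypes (right). DM stands at 5428 sites and 20.6%, and the next genotype, Npm1c, at 695 sites and 2.76%.

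Where a lost site had a peak, it held on average about 1 peak of fixed width. The median was 1000 bp under H3K4me1 peaks in each of the 6 libraries and in the neutrophil libraries where a peak was present, and between 62.4% and 62.8% of the sites' length was covered in each of the 6. Lost sites had a median merged width of 1473 bp, against 1497 bp for kept sites. DM kept other H3K4me1 nearby at most of them: its nearest peak lay a median of 3255.5 bp away, 1009 lost sites (18.6%) had one within 1 kb and 1064 (19.6%) had none within 10 kb. For 115 sites the nearest DM peak was more than 50 kb away. Sites near the edge of the rule were numerous: 5207 further distal regions had a peak in 5 of the 6 libraries and in neither DM library, and in most of these the missing library was Flt3-ITD replicate 1 (1935) or replicate 2 (1522). Of the 2922 sites with a peak in 1 DM library, 1090 had it in replicate 1 and 1832 in replicate 2.

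Lost sites lay inside genes more often than kept ones, 68.4% against 60.0%, counting spans of protein-coding genes. Of all distal regions, 60.6% lay inside genes. The median distance of lost sites to the nearest annotated start was 20.0 kb, against 16.6 kb for kept sites and 20.6 kb for all distal regions. Chromosome 18 was left out of these distances, because its starts were not used here. The lost share of the sites present in all 6 libraries ran from 17.9% on chromosome 15 to 22.4% on chromosome 12 among the autosomes, and 21 of 189 sites were lost on the X chromosome (11.1%). Most lost sites were isolated, 4042 of them, but 1386 (25.5%) stood in 603 runs of 2 or more, with at most 50 kb and no DM peak from one to the next, and 11 runs held 5 or more. One of the longest runs, 6 sites at chr1:69523577-69590057, overlapped Ikzf2, which encodes the zinc-finger factor Helios of the Ikaros family, and none of its 6 sites had H3K4me1 in either neutrophil library. The other run of 6, at chr4:59648599-59674392, overlapped E130308A19Rik. A run of 5 at chr7:68019687-68050027 lay in Igf1r, the receptor for insulin-like growth factor, and 4 of its sites had H3K4me1 in both neutrophil libraries.

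Neutrophils mostly lacked the lost sites. Of the 5428, 1228 (22.6%) had an H3K4me1 peak in both neutrophil libraries, 509 (9.38%) in 1 and 3691 (68.0%) in neither, whereas 72.3% of the kept sites were marked in both and 19.4% in neither. Of all 138234 distal regions, 35.4% were marked in both neutrophil libraries and 49.8% in neither. By library, 27.3% and 27.3% of lost sites had a peak, against 76.2% and 76.7% of kept sites. Turned round, 44.3% of the HSPC sites without neutrophil H3K4me1 were lost in DM (3691 of 8324), against 21.1% of those with it in 1 neutrophil library and 7.89% of those with it in both (1228 of 15573). Sites share libraries and are not replicates, so the difference carries no p-value. Sites lost in DM but marked in both neutrophil libraries lay in genes in 74.3% of cases and had a median width of 1614 bp, against 65.9% and 1424 bp for those with no neutrophil peak.

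**Figure D2:**
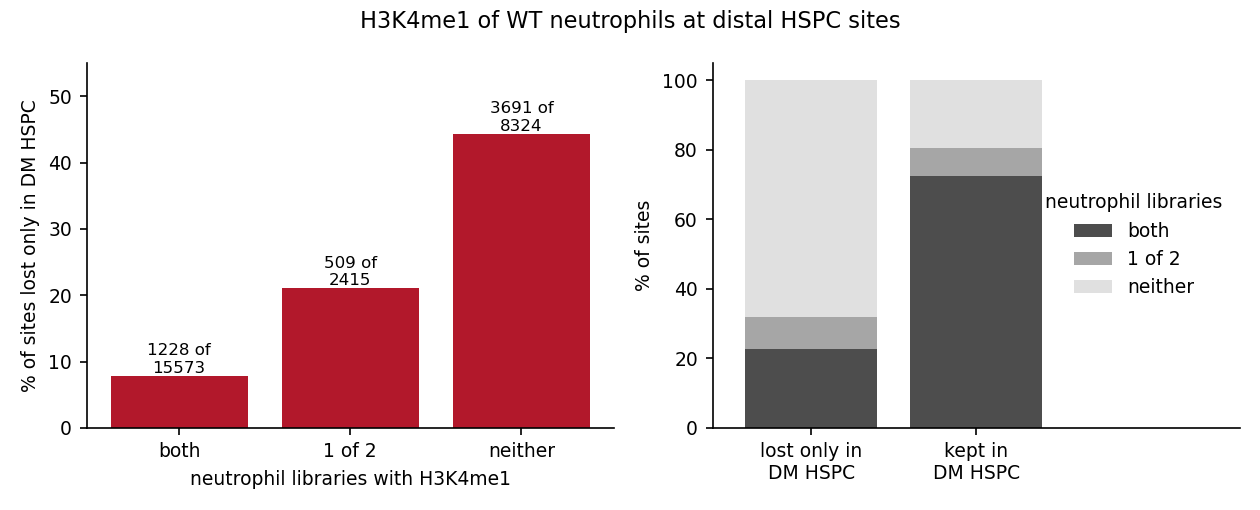
Left, percentage of distal sites with H3K4me1 in all 6 WT, Npm1c and Flt3-ITD libraries that were lost only in DM HSPC, split by how many of the 2 neutrophil libraries had a peak (counts above the bars); right, sites lost only in DM and sites kept in DM split by neutrophil peaks. The lost share is 7.89% with both neutrophil libraries and 44.3% with neither.

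The widest of the lost sites show both kinds. Among those that neutrophils kept, the widest was chr5:38553452-38558868 in Wdr1, which encodes an actin-disassembly cofactor, followed by sites in Get4, Zdhhc18, Igf1r and Daam1, a formin-family actin regulator. Among those that neutrophils lacked, the widest was chr1:128116382-128121883 in R3hdm1, followed by chr14:54484884-54490034 near Rem2 and sites in Septin9, Agap1 and Khdrbs3. Of these 10 sites, H3K27ac overlapped 1 in 1 library, the site near Rem2 in Npm1c replicate 1 with 217 bp.

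Few lost sites carried H3K27ac at all. A separate immunoprecipitation measured this mark, and 4973 lost sites (91.6%) had no H3K27ac peak in any of 10 libraries, against 79.2% of kept sites. The share of lost sites with a peak was 0.166% and 0.129% in DM, 7.50% and 2.75% in Npm1c, 0.479% and 1.18% in Flt3-ITD, 2.34% and 2.19% in WT and 0.387% and 0.313% in neutrophils. DM was the lowest group and did not overlap any other. The replicates of Npm1c stood apart, and 208 lost sites were acetylated in Npm1c replicate 1 alone. Lost sites were chosen for lacking H3K4me1 peaks in DM and kept sites for having them. The low DM share at lost sites is therefore given as description. Over all 138234 distal regions the shares were 2.48% and 1.61% in DM and 1.83% and 1.82% in WT, so DM and WT overlapped. At kept sites the shares were 14.1% and 9.95% in DM, 14.4% and 15.5% in Npm1c and 12.2% and 12.9% in Flt3-ITD. They were 10.5% and 10.6% in WT and 10.1% and 10.4% in neutrophils, so there DM overlapped every group but Npm1c. In bulk samples, fewer cells of a type and less of a mark per cell cannot be told apart.

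**Figure D3:**
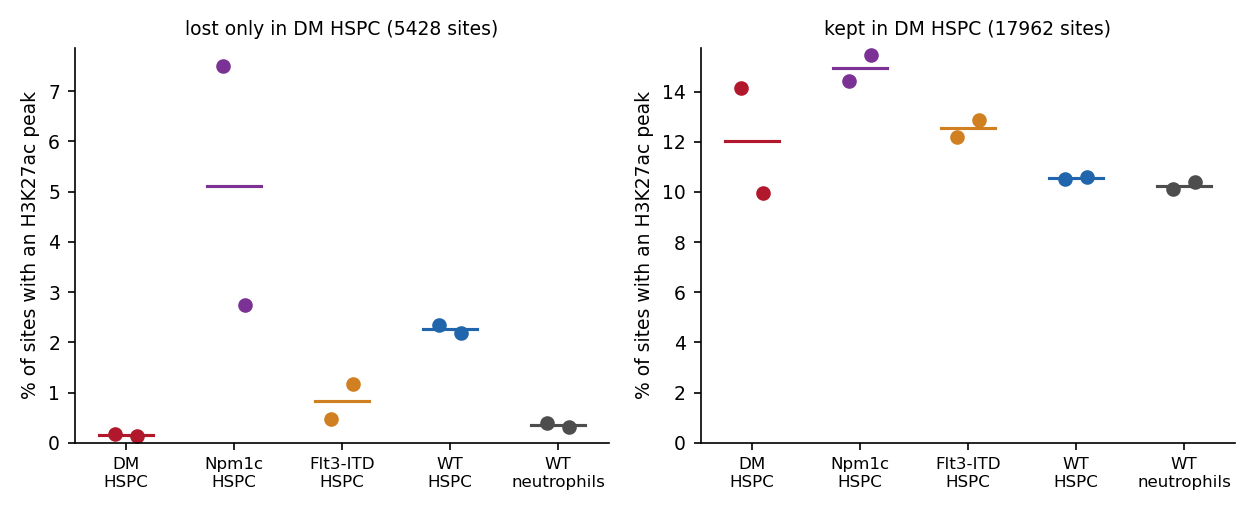
Percentage of sites with an H3K27ac peak in each library (points) and group mean (lines, n = 2), for the sites lost only in DM (left) and those kept in DM (right); the vertical axes differ in scale and both start at 0. At lost sites DM stands at 0.166% and 0.129%, against 2.34% and 2.19% in WT.

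H3K27ac was then compared site by site with limma, on log2 of the bp of each distal region under H3K27ac peaks plus 500 bp, over the 4791 distal regions with the mark in at least 2 of 10 libraries. Only 211 of the 5428 lost sites passed that filter, and the rest could not be compared. Between DM and WT, 30 of the 211 were called lower and 1 higher at an adjusted p under 0.05, beside 5.57% of all regions tested called lower and 7.60% called higher. The 211 reached the filter mainly through libraries other than DM. Both Npm1c libraries had H3K27ac at 133 lost sites, both WT at 92, both Flt3-ITD at 23 and both DM at 6. The count therefore describes the 211 and supports nothing further. Their median difference, DM minus WT, was -0.33 on that log2 scale, and the median over all regions was 0.00. All 30 had H3K27ac in both WT and both Npm1c libraries, 29 had none in either DM library, 13 had none in either Flt3-ITD library and 12 had it in both. Of the 30, 25 had no neutrophil H3K4me1 and 1 had neutrophil H3K27ac. Leaving out DM replicate 1 or replicate 2 left 16 or 18 sites called lower, and measuring each site with 1 kb on each side gave 85.

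Against the single mutants the counts differed. All counts of lost sites below carry the same limit of the filter: they describe the sites that passed it and support nothing further. DM was lower than Flt3-ITD at 10 lost sites and higher at 1, beside 3.53% of all regions called lower and 3.61% called higher, and the lower count was 5 without DM replicate 1, without DM replicate 2 or without Flt3-ITD replicate 2. DM was lower than Npm1c at 114 and higher at 1, beside 24.3% and 5.13%, and without Npm1c replicate 1 the lower count was 44, without DM replicate 2 it was 69. Flt3-ITD was lower than WT at 13 lost sites and higher at 0 (51 of the 211 had an unadjusted p under 0.05 in either direction), beside 1.57% and 2.86%, and the lower count was 6 without Flt3-ITD replicate 1 and 8 without WT replicate 1. That comparison was added after the data were seen, and the first 2 counts share the DM libraries. Neutrophils were lower than WT HSPC at 45 lost sites and higher at 9, beside 14.5% and 17.8%; without neutrophil replicate 1, and likewise without replicate 2, 15 were lower and 0 higher, and without WT replicate 1 the lower count was 29. Centring each library on its median turned the higher and lower calls over all regions to 374 and 943 in DM against Npm1c, where they were 246 and 1163 uncentred, and to 105 and 102 in Flt3-ITD against WT, where they were 137 and 75. The median difference between DM and Npm1c over all regions was -0.17 on the log2 scale before centring.

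The interaction asks whether Flt3-ITD changed a site differently with Npm1c than without it, as DM minus Npm1c minus Flt3-ITD plus WT. It was negative at 49 of the 211 lost sites and positive at 0 (71 of the 211 had an unadjusted p under 0.05), beside 16.6% and 2.88% of all regions. Sites that passed the filter through Npm1c, with little or no H3K27ac in DM, lean to a negative value. The count therefore describes the 211 and supports nothing further. The median over all regions was -0.24 on the log2 scale and over the 211 it was -0.44. The count rests on Npm1c replicate 1: without it 12 lost sites were negative and 23 positive. Centring gave 22 negative and 0 positive, and over all regions it gave 363 negative and 193 positive, where the uncentred counts were 793 and 138.

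At 14 lost sites there was H3K27ac in all 6 WT, Npm1c and Flt3-ITD libraries and in neither DM library. That choice fixed the DM values at 0 bp, so the p-values below describe these sites and support nothing. The widest gap between DM and WT was at chr10:80858524-80860103 in Sppl2b, about 3.64 kb from the start whose window is printed above. It had 0 and 0 bp of H3K27ac in DM, 1502 and 1580 bp in Npm1c, 796 and 1113 bp in Flt3-ITD, 1580 and 1580 bp in WT and 0 and 0 bp in neutrophils. Both WT libraries covered the whole site, the Flt3-ITD libraries covered part of it and DM none (limma adjusted p = 6.0e-05 for DM against WT, n = 2 each).
A site of 1710 bp at chr9:113967329-113969038, in the overlap of Fbxl2 and Ubp1, the gene of a CP2-family transcription factor, had 0 and 0 bp in DM, 1217 and 553 bp in Npm1c, 271 and 345 bp in Flt3-ITD and 1112 and 1248 bp in WT. The Flt3-ITD libraries were below all 4 of Npm1c and WT (limma adjusted p = 0.0029 for DM against WT). At chr17:12203161-12204853 in Agpat4, an acyltransferase of phospholipid synthesis, the values were 0 and 0 bp in DM, 728 and 457 bp in Npm1c, 273 and 340 bp in Flt3-ITD and 904 and 1144 bp in WT (limma adjusted p = 0.00067). At chr6:28233305-28234751 in Zfp800 they were 0 and 0 bp in DM, 1117 and 804 bp in Npm1c, 582 and 499 bp in Flt3-ITD and 539 and 589 bp in WT (limma adjusted p = 0.0013). Here Npm1c was above both other genotypes, and Flt3-ITD overlapped WT. C1qtnf12 held a site, chr4:155965172-155966395, with 0 and 0 bp in DM, 964 and 607 bp in Npm1c, 236 and 365 bp in Flt3-ITD and 676 and 898 bp in WT (limma adjusted p = 0.0025).

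Sites in Plekhd1 (chr12:80698364-80700703), Tmem131l (chr3:84034529-84036233) and Zbtb5 (chr4:44993932-44995135) were also called lower in DM than in WT, with limma adjusted p of 0.016, 0.018 and 0.017, but each missed the threshold when any 1 of the 4 DM and WT libraries was left out, with adjusted p from 0.0540 to 0.111. The Tmem131l site was the only one of the 10 widest that had H3K4me1 in both neutrophil libraries, and it had 0 and 0 bp of H3K27ac there. A site in Ift140, chr17:25086658-25088958, which encodes a subunit of the ciliary transport complex, had 0 and 0 bp in DM, 495 and 188 bp in Npm1c, 0 and 366 bp in Flt3-ITD and 1078 and 1310 bp in WT (limma adjusted p = 0.0093, and 0.0665 without WT replicate 2). The site near Gm30717 (chr7:125427528-125428936) was not called (limma adjusted p = 0.13). Only 1 lost site was called higher, chr10:18056626-18057834 in Reps1: it had 766 and 1023 bp in DM, 0 and 208 bp in Npm1c, 118 and 194 bp in Flt3-ITD and 0 and 0 bp in WT (limma adjusted p = 0.0030). A DM peak of H3K4me1 lay 32 bp from its edge.

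**Figure D4:**
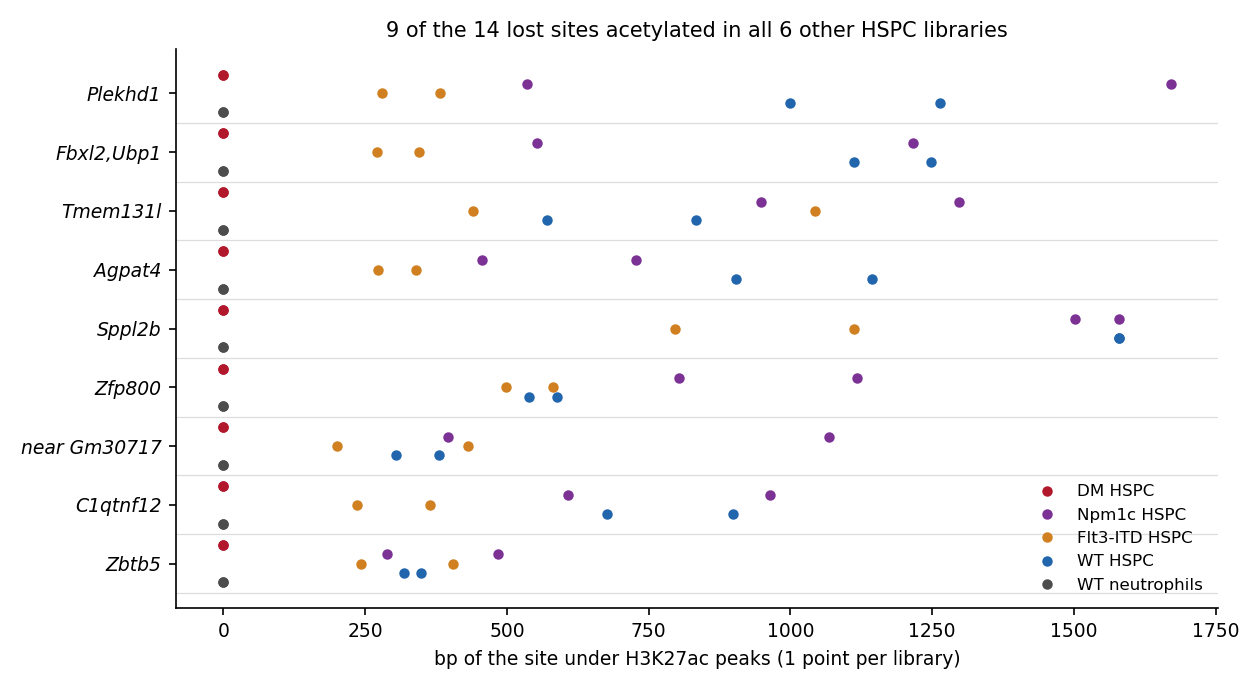
Base pairs under H3K27ac peaks at 9 of the 14 lost sites acetylated in all 6 WT, Npm1c and Flt3-ITD HSPC libraries, 1 point per library; rows carry the gene whose span holds the site or the nearest start. Both DM libraries and both neutrophil libraries stand at 0 bp in every row, and the rule for these sites fixed the DM values.

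Among 21883 protein-coding genes, 3486 (15.9%) had a lost site in their span or within 10 kb of it, and 100 had 5 or more. The genes with the most were Angpt1 (16 of 25 sites present in all 6 libraries), Igf1r (15 of 25), Ikzf2 (13 of 16), Snd1 (12 of 28), Dpf3 (12 of 13), Dennd1a (11 of 19) and Mboat2 (10 of 16), with 9 each in Daam1, Gse1 and Mindy4. Long genes have more room for sites, and the number was not divided by length. H3K4me1 kb in these windows follows from the rule. In Dpf3 (chr12:83213751-83487736), whose protein reads acetylated histones for the BAF remodelling complex, peaks summed to 4 and 5 kb in DM, 42.0 and 40.4 kb in Npm1c, 30.0 and 27 kb in Flt3-ITD, 38.0 and 37.0 kb in WT and 7 and 8 kb in neutrophils. DM and neutrophils were alike low there, and the 3 other genotypes were high. In Igf1r the sums were 38.0 and 40.0 kb in DM, 76.0 and 85.0 kb in Npm1c, 80.0 and 70.0 kb in Flt3-ITD, 89.0 and 83.0 kb in WT and 78.0 and 78.0 kb in neutrophils, so that DM alone was low.

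H3K27ac over the whole gene windows was compared between DM and WT over 13633 genes. The rule did not use this mark, but the windows contain the sites chosen for lacking H3K4me1 in DM. The counts by lost sites are therefore given as description. Of the 3186 genes with a lost site that could be tested, 370 were called lower and 176 higher, beside 6.03% lower and 6.94% higher over all genes tested. Without WT replicate 1 the counts were 61 lower and 9 higher, without WT replicate 2 they were 79 and 24, without DM replicate 1 the higher count was 93, and without DM replicate 2 there were 267 lower and 438 higher, so the number of calls depends on single libraries. Among genes with at least 3 sites present in all 6 libraries, the share called lower was 4.50% of 1221 genes that lost none, 8.88% of 1374 that lost fewer than 50%, 23.2% of 353 that lost 50% or more and 10 of 37 that lost all. The shares called higher were 10.4%, 8.44% and 1.42% in the first 3 of these groups, and 1 of 37 in the last. These shares were not recomputed with a library left out.

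Angpt1 encodes angiopoietin-1, a ligand that supports stem cells and vessels. Its window had 0.701 and 0.567 kb of H3K27ac in DM, 5.82 and 6.23 kb in Npm1c, 2.50 and 2.65 kb in Flt3-ITD, 4.06 and 2.46 kb in WT and none in neutrophils. DM was below every other HSPC library (log2 difference to WT -1.70 ± 0.19 SE, limma adjusted p = 0.0031). Dpf3 had 0 and 0 kb in DM, 7.24 and 3.41 kb in Npm1c, 1.28 and 2.48 kb in Flt3-ITD and 4.0 and 3.88 kb in WT, and none in neutrophils (limma adjusted p = 0.0026). Igf1r had 3.31 and 1.16 kb in DM, 13.3 and 13.5 kb in Npm1c, 6.78 and 8.43 kb in Flt3-ITD, 8.78 and 9.71 kb in WT and 12.0 and 13.2 kb in neutrophils, a log2 difference between DM and WT of -1.95 ± 0.35 (limma adjusted p = 0.014). Mboat2, a lysophospholipid acyltransferase gene, Daam1, Gse1 and Mindy4 were also called lower in DM than in WT, with limma adjusted p from 0.013 to 0.047. Apart from Angpt1 and Dpf3, each of these called genes missed the threshold without WT replicate 1 and without WT replicate 2, with adjusted p from 0.0773 to 0.209. Gse1 also missed it without DM replicate 2, at 0.0660, and Mindy4 without DM replicate 1 or 2, at 0.0683 and 0.0645. Ikzf2, Snd1 and Dennd1a were not called, at limma adjusted p of 0.36, 1.0 and 1.0. Ikzf2 had 1.63 and 0.761 kb in DM, 6.11 and 7.31 kb in Npm1c, 1.57 and 1.93 kb in Flt3-ITD and 2.15 and 1.34 kb in WT, and only Npm1c stood apart.

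Lost sites were spread unevenly over lists of blood genes. The erythroid list had lost sites at 12 of 25 genes, and 16 of its 34 sites present in all 6 libraries were lost (47.1%), beside 20.6% of all distal sites. The mature neutrophil list lost 0 of 7 and the list of primary granule and granulocyte-monocyte progenitor genes 0 of 19. Stem and progenitor genes lost 27 of 126 (21.4%), megakaryocyte genes 9 of 40, TGF-beta and BMP signalling genes 18 of 82 and leukaemia-associated genes 24 of 133, all near the share of all sites. HOX genes and cofactors lost 9 of 21, of which 7 were in Meis1. Dendritic cell genes lost 3 of 39, STAT5 and MAPK feedback genes 3 of 42, monocyte and macrophage genes 1 of 16, B-lymphoid genes 1 of 17 and T and NK cell genes 4 of 12. Eosinophil, basophil and mast cell genes lost 2 of 17, H3K4 methylation enzyme genes 5 of 38, housekeeping genes 1 of 12 and other-tissue genes 0 of 2. Lists overlap, and neighbouring genes can share a site.

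**Figure D5:**
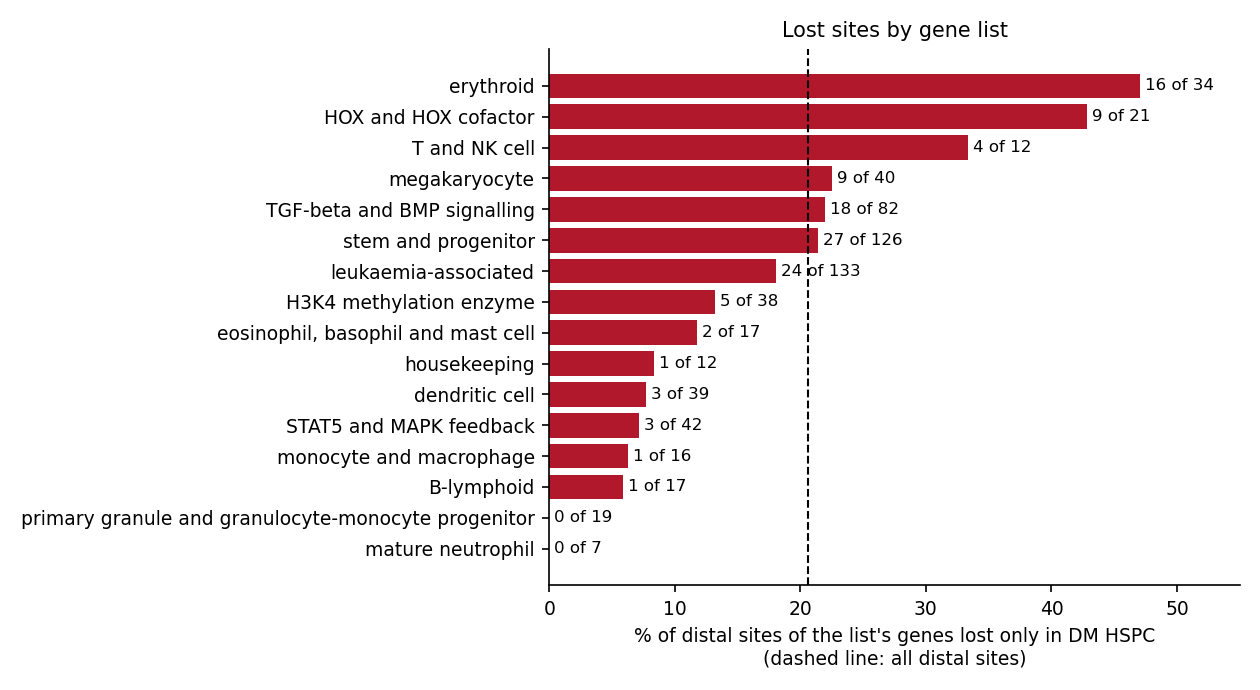
Percentage of the distal H3K4me1 sites within 10 kb of the genes of each list, present in all 6 WT, Npm1c and Flt3-ITD libraries, that were lost only in DM HSPC; counts stand beside the bars and the dashed line is the share of all distal sites, 20.6%. The erythroid list is at 16 of 34 and the mature neutrophil list at 0 of 7; a list of other-tissue genes with 2 sites is not drawn.

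H3K27ac of the whole window was lower in DM than in WT at most erythroid genes. Of the 12 erythroid genes with a lost site, 8 were called lower in DM than in WT for H3K27ac and 0 higher, with a median log2 difference of -1.84; of all 22 erythroid genes tested, 16 were lower and 0 higher, with a median of -1.91. Car2, carbonic anhydrase 2 of red cells, lost all 3 of its sites. Its window had 0.272 and 0.257 kb of H3K27ac in DM, 14.5 and 12.1 kb in Npm1c, 7.30 and 9.45 kb in Flt3-ITD, 9.81 and 8.85 kb in WT and none in neutrophils (log2 difference between DM and WT -3.68 ± 0.14 SE, limma adjusted p = 9.9e-05). One of the lost sites, chr3:14890917-14892247, itself had 0 and 0 bp of H3K27ac in DM, 1317 and 1145 bp in Npm1c, 567 and 945 bp in Flt3-ITD and 351 and 0 bp in WT. Aqp1, the water channel of the red cell membrane, had 0 and 0 kb in DM and 5.15 and 5.53 kb in WT (limma adjusted p = 0.00025). Ank1, which encodes erythroid ankyrin, had 0.685 and 0.338 kb in DM and 5.97 and 5.60 kb in WT (log2 difference -2.66 ± 0.37, limma adjusted p = 0.0063). Sptb, erythroid beta-spectrin, had 1.31 and 0.813 kb in DM and 3.32 and 3.69 kb in WT (limma adjusted p = 0.026). Flt3-ITD was below both WT libraries as well, with 2.97 and 3.98 kb at Aqp1, 0.965 and 2.66 kb at Ank1 and 1.72 and 2.915 kb at Sptb. Those differences from WT were not called (limma adjusted p = 0.20, 0.14 and 0.45). In Npm1c the values were 6.73 and 4.69 kb at Aqp1, 8.475 and 5.075 kb at Ank1 and 6.065 and 3.35 kb at Sptb. Ank1 and Sptb missed the threshold without WT replicate 1 and without WT replicate 2, at adjusted p of 0.0599 and 0.0516 for Ank1 and 0.125 and 0.145 for Sptb, and Sptb also without DM replicate 2, at 0.0735.

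A lost site also stood at 4 further erythroid genes, chosen after their values were seen. Klf1 encodes the master erythroid activator, and its site chr8:84900078-84901243 had 0 and 0 bp of H3K27ac in DM, 788 and 388 bp in Npm1c, 0 and 328 bp in Flt3-ITD and 398 and 328 bp in WT. Gfi1b, a repressor needed for red cells and platelets, lost chr2:28603848-28605301, and its window had 0 and 0 kb of H3K27ac in DM against 7.59 and 8.19 kb in WT. The window of Zfpm1, the GATA1 cofactor gene, had 1.16 and 0.509 kb in DM against 12.6 and 13.4 kb in WT. Flt3-ITD was below WT at both genes too, with 1.75 and 4.17 kb at Gfi1b and 3.51 and 7.23 kb at Zfpm1. In Npm1c they had 10.9 and 6.41 kb and 21.4 and 10.7 kb. Kel, a blood-group antigen gene, lost chr6:41684321-41686806, where the nearest DM peak of H3K4me1 was 28653 bp away. Of the 16 lost erythroid sites, 11 had no neutrophil H3K4me1, 4 had it in both libraries and 6 had H3K27ac in at least 1 library.

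Erythroid markers were also lower in DM than in WT. Klf1, Ank1 and Tfrc among them are erythroid genes with a lost site, counted above, so the sums are not a separate check. H3K27ac over Klf1, Epor, Hba-a1, Hbb-bs, Slc4a1, Ank1, Rhag and Tfrc summed to 5.17 and 3.20 kb in DM, 27.9 and 20.5 kb in Npm1c, 9.69 and 14.4 kb in Flt3-ITD, 18.7 and 17.3 kb in WT and 2.55 and 2.23 kb in neutrophils. Of these 8 markers, 4 were at 0 in each DM library (Hba-a1, Hbb-bs, Slc4a1 and Rhag), against 2 and 1 in the WT libraries. Hbb-bs was at 0 in every library, and Hba-a1 in every library but WT replicate 2, where it had 0.211 kb. The part of fewer erythroid cells in the loss of sites was not tested. Megakaryocyte markers (Pf4, Itga2b, Gp9 and Vwf) summed to 2.50 and 1.79 kb in DM, 11.8 and 8.52 kb in Npm1c, 3.04 and 5.48 kb in Flt3-ITD and 6.34 and 7.18 kb in WT. The 3 monocyte markers (Csf1r, Ly86 and Adgre1, the last at 0 in every library) summed to 8.27 and 4.03 kb in DM, 0.702 and 3.30 kb in Npm1c, 3.59 and 2.62 kb in Flt3-ITD and 1.815 and 1.05 kb in WT.

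Among stem and progenitor genes with a lost site, the whole window gained H3K27ac at some and lost it at others. Meis1, a HOX cofactor that supports stem cell self-renewal and leukaemia, lost 7 of its 15 sites between chr11:18903338 and chr11:18984616, none of which had H3K27ac in any library and 1 of which neutrophils marked. The H3K27ac of its window was higher in DM, with 4.19 and 2.78 kb in DM, 7.48 and 10.7 kb in Npm1c, 2.72 and 5.00 kb in Flt3-ITD, 0.263 and 0.709 kb in WT and none in neutrophils (log2 difference between DM and WT 2.03 ± 0.33, limma adjusted p = 0.011, and 0.0833 without WT replicate 1). Tal1, a regulator of blood stem and red cells, lost all 4 of its sites and had 1.73 and 1.15 kb of H3K27ac in DM, 9.26 and 8.64 kb in Npm1c, 5.45 and 6.89 kb in Flt3-ITD and 6.96 and 6.75 kb in WT (log2 difference between DM and WT -1.94 ± 0.17, limma adjusted p = 0.0016, held without any 1 DM or WT library). Hlf, a stem cell transcription factor gene, lost 4 of 7 sites, and Mecom, which encodes EVI1, lost 3 of 6; neither was called for H3K27ac (limma adjusted p = 0.51 and 1.0). Tgfbr3, the betaglycan co-receptor for TGF-beta, lost 9 of 18 sites and was not called (limma adjusted p = 0.075). Of the 11 stem and progenitor genes with a lost site, 3 were called lower and 2 higher in DM than in WT. The 9 TGF-beta and BMP genes with a lost site had a median log2 difference of 0.00.

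Other genes with a lost site rose or fell singly. Vwf, the von Willebrand factor gene of megakaryocytes, fell to 2.18 and 1.52 kb of H3K27ac in DM, against 3.67 and 3.26 kb in WT (limma adjusted p = 0.031). Nf1, a brake on RAS, lost 2 of 3 sites while its window had 12.7 and 9.55 kb in DM against 3.99 and 3.92 kb in WT (log2 difference 1.37 ± 0.17, limma adjusted p = 0.0043). The single mutants were above WT at Nf1 too, with 9.07 and 9.50 kb in Npm1c and 8.81 and 7.415 kb in Flt3-ITD. Cd68, a macrophage gene, Tcf4, a plasmacytoid dendritic cell regulator, and Ncoa6, a subunit of H3K4 methylase complexes, were called higher, at limma adjusted p of 0.021, 0.017 and 0.021, and Cd247, the CD3 zeta chain gene, was called lower at 0.044. Each of these 6 genes missed the threshold without WT replicate 1 and without WT replicate 2, at adjusted p from 0.0516 to 0.204. Vwf and Cd247 also missed it without DM replicate 2, at 0.0737 and 0.104, and Ncoa6 without DM replicate 1, at 0.0616. At Cd68, Tcf4 and Ncoa6 every Npm1c and Flt3-ITD library was also above both WT libraries. Both Flt3-ITD libraries were below both WT libraries at Vwf and Cd247, while no Npm1c library was. Itga2b, the platelet integrin gene, lost both of its sites and was not called (limma adjusted p = 0.24).

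H3K4me3, a mark of promoters, was compared over gene spans with 5 kb on each side. Of 3364 genes with a lost site tested for it, 147 were called lower and 110 higher in DM than in WT, beside 3.70% lower and 4.46% higher over 16134 genes. The median difference was 0.00 for these genes and for all genes. Peaks of this mark have a fixed width of 1000 bp, so replicates can tie and their spread can be near 0. At Asxl1, 2 and 2 kb in DM against 3 and 3 kb in WT gave a log2 difference of -0.485 with an SE of 0.002. Such calls can rest on tied peak counts. Among erythroid genes with a lost site, 1 of 12 was called lower for H3K4me3 and 0 higher.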

How the data were processed

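Chromatin immunoprecipitation sequencing of 35 samples covered H3K4me1, H3K27ac and H3K4me3 in 5 groups, with 2 libraries per group and mark. The 30 libraries of these marks were used, and 5 input samples were not used here. The authors deposited peak coordinates (chromosome, start and end in mm10) without a score or count, so depth and peak height are unknown and no interval on depth can be given. Bowtie2 2.1.0, Picard, HOMER and MACS2 are named by the submitters' processing notes; of peak thresholds and other versions nothing was stated in the sources used. HOMER lists hold peaks of 1000 bp, so width under H3K4me1 or H3K4me3 reflects the number of peaks, not their breadth.

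Overlap by 1 bp counted as presence. H3K27ac was measured as bp under peaks per distal region, or per protein-coding gene span with 10 kb on each side, and H3K4me3 with 5 kb on each side, on log2(bp + 500). A fold change on this scale understates changes of narrow peaks. limma 3.58.1 in R 4.3.3 (trended eBayes, all 10 libraries, no block, Benjamini-Hochberg over all features tested, threshold 0.05) compared groups over features with the mark in at least 2 libraries, after being tested on simulated data. Interval overlaps were computed with NumPy 2.4.6 (Python 3.11.15), tables made with pandas 2.3.3 and figures drawn with matplotlib 3.10.9. Gene spans and start-site windows (250 bases before to 50 after the start) are from RefSeq GRCm38.p6; exons and introns were not used here.

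Named sites were the 5 widest lost sites with H3K4me1 in both neutrophil libraries and the 5 widest with it in neither, up to 10 by width of those acetylated in all 6 WT, Npm1c and Flt3-ITD libraries and in neither DM library, and up to 5 each way by size of those called between DM and WT. Named genes were the 10 with most lost sites and up to 4 of each of 17 lists, by number of lost sites. Some genes and a site beside them are not reported here. The sites and lists were chosen with earlier results of these data known. Alternatives were other merging, overlap and distance rules, pseudocounts, filters, windows, centring, robust eBayes, HSPC libraries only, a replicate block and leaving out each library of the groups compared.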

Additional observations from a re-analysis of the deposited data

Results flagged for a closer look

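The interaction of Npm1c and Flt3-ITD on H3K27ac was DM minus Npm1c minus Flt3-ITD plus WT on log2(bp + 500). It passed an adjusted p under 0.05 (limma) at 4 named sites and 17 of 45 named genes tested, all negative. A negative value means that the difference made by Flt3-ITD was lower with Npm1c than without it. Negative calls were common everywhere: 17.5% of all 13633 genes tested were called negative and 0.462% positive. Among the 3186 genes with a lost site, 24.9% were called negative. Over all distal regions tested the shares were 16.6% negative and 2.88% positive. The 4 sites were chosen for H3K27ac in all 6 WT, Npm1c and Flt3-ITD libraries and in neither DM library, which fixed DM at 0 bp, so their values are a description. These sites were chr3:84034529-84036233 in Tmem131l (-1.70), chr10:80858524-80860103 in Sppl2b (-1.504), chr6:28233305-28234751 in Zfp800 (-1.51) and chr4:44993932-44995135 in Zbtb5 (-0.79). Among genes of red cells and stem cells the values were -4.02 at Car2, -3.05 at Aqp1, -2.15 at Tal1, -3.40 at Meis1, -1.73 at Mecom and -2.27 at Angpt1. Genes with many lost sites had -2.19 at Igf1r, -2.16 at Ikzf2, -2.51 at Dpf3 and -1.29 at Daam1. The remaining values were -1.64 at Cd247, -1.51 at Itga2b, -1.14 at Asxl1, -1.36 at Ccr3, -0.87 at Egr1, -1.47 at F2r and -0.56 at Rplp0, a ribosomal gene of the housekeeping list.

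Npm1c had the highest H3K27ac of the 4 genotypes at many of these features. The median interaction was itself -0.24 over all distal regions tested and -0.46 over all genes tested. After centring each library, 3 of the 4 sites and 8 of the 17 genes still passed. Without WT replicate 1 the number of genes was 4, without WT replicate 2 it was 3 and without DM replicate 2 it was 11. In fits added after seeing the data, it was 11 without Npm1c replicate 1, 14 without Npm1c replicate 2, 15 without Flt3-ITD replicate 1 and 8 without Flt3-ITD replicate 2. Without Npm1c replicate 1, 2 of the 4 sites passed. The part of the Npm1c libraries' overall level in these values was not tested.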

How the results depend on the processing

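The number of lost sites ranged from 4419 to 7363 over all alternatives, within 1.5 times of 5428. The share marked in both neutrophil libraries, 22.6%, was 23.9% with peaks up to 500 bp apart merged, 20.9% with no DM peak within 1 kb, 24.0% with H3K4me3 of HSPC only, and from 19.2% to 28.3% leaving out each of the 10 libraries. Measuring H3K27ac with 1 kb on each side gave 85 lost sites lower in DM than WT, 230 than Npm1c, 33 than Flt3-ITD, 99 with a negative interaction and 118 lower in neutrophils than WT. Requiring the mark in 4 libraries gave 55 against Npm1c and 12 for the interaction; centring gave 22 for the interaction. With a pseudocount of 2000 bp there were 6 for DM against Flt3-ITD and 8 for Flt3-ITD against WT, which had 20 with 100 bp and 5 in the 8 HSPC libraries alone. Leaving out each library of the groups compared (all 8 HSPC libraries for the interaction) gave from 16 to 22 for DM against WT, 44 to 117 against Npm1c, 5 to 13 against Flt3-ITD, 12 to 47 for the interaction, 15 to 32 for neutrophils against WT and 6 to 13 for Flt3-ITD against WT. Among genes with a lost site, centring gave 617 lower and 310 higher for H3K27ac and 60 higher for H3K4me3; leaving out each DM and WT library gave from 61 to 551 lower and 9 to 438 higher for H3K27ac, and 110 to 211 lower and 91 to 165 higher for H3K4me3. The causes were not tested, other than that fewer samples entered the fits without a library. Without Npm1c replicate 1 the interaction had 12 negative and 23 positive calls, and without DM replicate 2 the H3K27ac of genes had 267 lower and 438 higher, against 370 lower and 176 higher with all libraries. No site or gene checked singly was called in opposite directions.

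The labels tie same-numbered libraries by a number only. Over distal regions their deviations correlated at -0.02 for DM and WT, -0.16 for DM and Npm1c and 0.23 for DM and Flt3-ITD. For H3K27ac of genes the values were 0.02, -0.13 and 0.28. Whether same-numbered libraries shared a batch cannot be told from these values. With a replicate block, 28 lost sites were lower in DM than WT, 105 than Npm1c (105 with the numbers crossed, added after seeing the data) and 6 than Flt3-ITD, 41 had a negative interaction, 8 were lower in Flt3-ITD than WT, and 302 genes were lower and 138 higher for H3K27ac. Of 18 sites and 45 genes checked singly for DM against WT, 17 calls were lost without WT replicate 1, 17 without WT replicate 2, 5 without DM replicate 1 and 8 without DM replicate 2. With 2 libraries per group and no read counts, a missing peak cannot be told from a weak one.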
